A study of Mus musculus with 9 samples.

Results

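The genes described here are 10 markers of the mesothelium: Upk3b, Upk1b, Msln, Lrrn4, Krt7, Krt19, Gpm6a, Wt1, Muc16 and Bnc1. The genes were proposed for their co-variation across these mice, with earlier results of these data known. Their probes were then taken by gene symbol in the platform annotation of the array, with no further use of the measured values. Of the 10 genes, 8 had at least 1 probe, 13 in all among the 45281 probes of the array. No probe was listed under Wt1 or Muc16, so these 2 genes are not analysed here. Of the 13 probes, 10 passed the filter on dim probes, which asked for a detection p-value under 0.05 on at least 4 arrays, and each of the 8 genes kept at least 1. The 3 probes that were left out, a second one for Upk1b (ILMN_2519577) and 2 for Gpm6a (ILMN_2684528 and ILMN_2705495), were detected on 0 of 9 arrays.

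The study measured RNA of epididymal fat from 9 FVB/N mice on Illumina bead arrays, 1 array per mouse. In 5 of them, called tg/tg below, both alleles carried a transgene for the tropomyosin Tm5NM1, a protein that winds along actin filaments outside the muscle sarcomere, and 4 were wild type (wt/wt). Both groups were 3 months of age at collection and went without food for 14 to 16 h before it. The labels used here leave the transgene's promoter, the litters and the slides unstated. The deposited values were bead intensities, which were corrected for background, quantile normalized and put on a log2 scale. Before normalization the median intensity was 142 to 147 on the arrays of wild-type mice 142, 143 and 159 and 169 to 192 on the other 6. Between 22239 and 23313 probes were detected per array, and with 1 array per mouse it is the 9 mice that limit precision. The labelled tissue carried its defining RNA, since the adipocyte hormone Adiponectin (Adipoq) lay between 15.80 and 16.01 in all 9 mice. Epididymal epithelium markers were also present, most clearly in wt/wt mice. The mean log2 level of the 14 tested genes of that list was 5.13 to 10.13 in tg/tg mice and 11.30 to 14.43 in wt/wt mice. In tg/tg mice 165, 163 and 164 it was only 5.13, 5.36 and 5.31, and Gpx5 of that list was detected on 2 of the 5 tg/tg arrays.

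The mesothelium is a single sheet of flat cells that lines the body cavities and covers the organs and fat pads within them. Its cells have the keratins and junctions of a simple epithelium but arise from mesoderm, and they secrete the lubricating fluid of the cavity. Visceral fat such as the epididymal pad carries this sheet on its surface, whereas subcutaneous fat does not. In a bulk sample of fat, fewer cells of a type and less RNA per cell cannot be told apart.

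The uroplakins Upk3b and Upk1b are membrane proteins first described in the lining of the bladder, where the tetraspanin Upk1b pairs with uroplakins of the Upk3 kind. The log2 level of Upk3b at its brightest probe, ILMN_2941714, was 12.02, 9.40, 10.96, 7.96 and 7.46 in tg/tg mice 165, 152, 147, 163 and 164. In wt/wt mice 141, 142, 143 and 159 it was 11.27, 12.63, 10.72 and 9.98. The groups overlapped: transgenic mouse 165 lay above 3 of the 4 wild types, and mice 163 and 164 were the lowest of all. The mean was 9.56 ± 1.94 (SD, n = 5) in tg/tg and 11.15 ± 1.12 (SD, n = 4) in wt/wt mice. This log2 difference of -1.59 (95% interval -3.64 to 0.47, limma adjusted p = 0.620) did not pass the test. Its other probes gave differences of -1.48 (ILMN_2941712) and -1.31 (ILMN_2941715, detected on 7 arrays), with adjusted p of 0.643 and 0.687 in the same limma fit. Single mice moved these 2, to -0.89 for the former without mouse 164, and for the latter to -0.73 without mouse 142 and -0.87 without mouse 163. Without mouse 165 they were -2.13 and -1.95. The 3 probes ordered the mice alike, with Pearson correlations of 0.97 to 0.99 over the 9 arrays that they share.

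Upk1b (ILMN_2936646) had the largest difference of the 8 genes. Its log2 level was 10.70, 7.88, 9.88, 8.17 and 6.28 in tg/tg mice 165, 152, 147, 163 and 164, and 11.59, 10.94, 11.90 and 9.76 in wt/wt mice 141, 142, 143 and 159. Transgenic mice 165 and 147 lay above wild-type mouse 159, and the other 3 lay below every wild type. The means were 8.58 ± 1.74 (SD, n = 5) and 11.05 ± 0.95 (SD, n = 4), a log2 difference of -2.46 (95% interval -4.29 to -0.63). The unadjusted limma p was 0.0133 and the adjusted p was 0.418, so that the difference did not pass after correction over all probes.

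Msln, Lrrn4 and Gpm6a encode proteins of the cell surface. Mesothelin (Msln) is a lipid-anchored glycoprotein that binds Muc16. Its log2 level (ILMN_1231379) was 9.71, 5.94, 8.62, 7.03 and 5.85 in tg/tg mice 165, 152, 147, 163 and 164, and 8.28, 9.65, 8.11 and 8.15 in wt/wt mice 141, 142, 143 and 159. Transgenic mouse 165 was the highest of the 9 and mouse 147 lay above 3 wild types, while mice 152, 163 and 164 lay below all 4. The log2 difference was -1.12 (95% interval -2.84 to 0.61, limma adjusted p = 0.681). It was -0.72 without mouse 164, -0.74 without mouse 152 and -1.69 without mouse 165.

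Lrrn4, a membrane protein with leucine-rich repeats, had log2 levels (ILMN_2608166) of 9.04, 6.74, 7.99, 6.41 and 6.66 in tg/tg mice 165, 152, 147, 163 and 164. In wt/wt mice 141, 142, 143 and 159 they were 8.22, 9.42, 7.44 and 7.94. Mouse 165 again lay among the highest wild types and mouse 147 between them. The log2 difference was -0.89 (95% interval -2.16 to 0.39, limma adjusted p = 0.655). It was -0.50 without mouse 142 and -1.30 without mouse 165. Gpm6a, a membrane glycoprotein best known from neurons, had log2 levels (ILMN_2909336) of 9.02, 7.24, 8.56, 7.76 and 6.82 in the 5 tg/tg mice in the same order. In the wt/wt mice in the same order they were 8.74, 9.52, 8.10 and 8.40. Mice 165 and 147 lay within the wild-type range and the other 3 below it, as for Lrrn4. Its difference was -0.81 on the log2 scale (95% interval -1.83 to 0.21, limma adjusted p = 0.610). It was -0.53 without mouse 142 and -1.09 without mouse 165.

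Basonuclin 1 (Bnc1) is the only measured member that encodes a DNA-binding protein, a zinc finger factor of epithelia and germ cells. Its log2 level (ILMN_2910258) was 8.07, 5.93, 6.75, 5.78 and 5.49 in tg/tg mice 165, 152, 147, 163 and 164, and 6.93, 8.54, 6.73 and 6.60 in wt/wt mice 141, 142, 143 and 159. The probe was detected on 8 of 9 arrays, all but that of mouse 164, so differences at its lower end are compressed. Mice 142 and 165 were each the highest of their genotype, and mice 152, 163 and 164 lay below every wild type. The log2 difference was -0.80 (95% interval -2.05 to 0.45, limma adjusted p = 0.684). It was -0.36 without mouse 142 and -1.22 without mouse 165.

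Krt7 and Krt19 are keratins of simple epithelia, a type II and a type I filament protein, and are made by many epithelia besides the mesothelium. The log2 level of Krt7 (ILMN_2961152) was 7.12, 7.70, 6.77, 6.47 and 6.001 in tg/tg mice 165, 152, 147, 163 and 164, and 7.46, 7.51, 7.79 and 7.11 in wt/wt mice 141, 142, 143 and 159. Here transgenic mouse 152, which was low for the genes above, lay above 3 wild types. The log2 difference was -0.65 (95% interval -1.34 to 0.03, limma adjusted p = 0.546). Krt19 (ILMN_2614462) had log2 levels of 7.73, 10.43, 7.93, 8.25 and 7.95 in the tg/tg mice and 8.54, 8.97, 8.78 and 7.98 in the wt/wt mice, both in the same order. Mouse 152 was the highest of the 9, and the other 8 mice lay within 7.73 and 8.97. The log2 difference was -0.11 (95% interval -1.24 to 1.02, limma adjusted p = 0.964), and its sign turned without mouse 165 (0.073), 147 (0.023), 164 (0.019) or 142 (0.024). Without mouse 152 it was -0.61 and without mouse 159 it was -0.30.

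**Figure D1:**
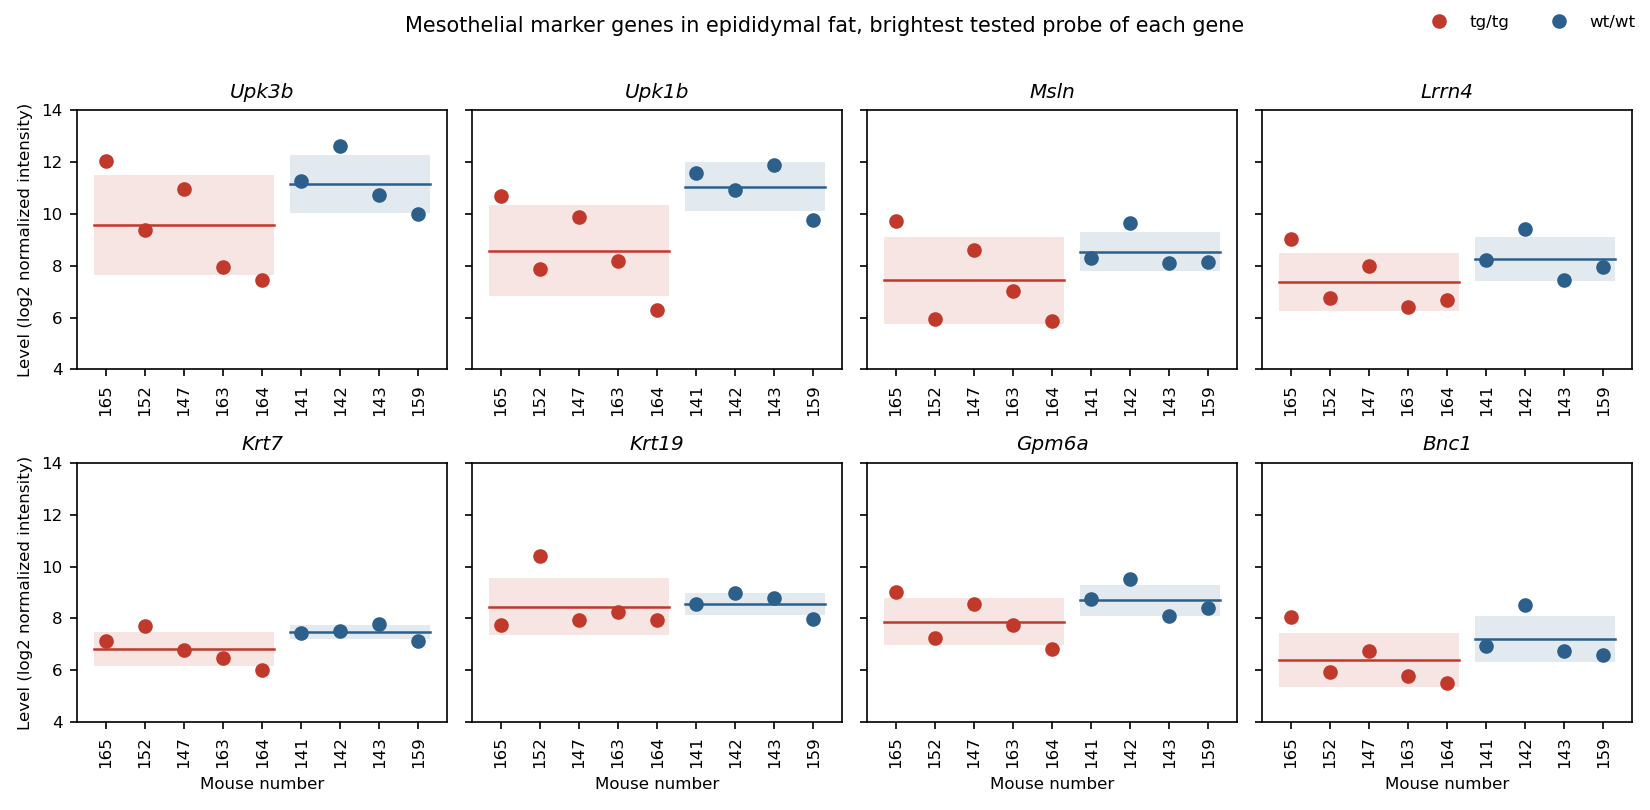
Log2 normalized intensity of the 8 tested mesothelial genes (brightest tested probe) in each mouse, tg/tg in red and wt/wt in blue. Lines mark the mean and shaded bands the SD (n = 5 and 4). The 2 groups overlap in every panel, and mice 165 and 142 are high and mice 163 and 164 low for Upk3b, Lrrn4 and Bnc1.

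Against the whole array, 0 of the 8 genes were called at an adjusted p under 0.05, where 16 of the 23354 tested probes were called (0.0685%), all of them lower in tg/tg mice. At an unadjusted p under 0.05, 1 of the 8 genes passed, Upk1b, beside 9.45% of all probes, or 3.40% counting only those lower in tg/tg. All 8 genes had a mean below that of the wild types, beside 5299 of the 12171 tested named genes (43.5%). The median log2 difference of the 8 genes was -0.85, beside 0.04 for all named genes. Of the 8 genes, 0 had groups that did not overlap, beside 3.21% of all probes, or 1.16% counting only those with tg/tg mice lower. The 8 genes follow each other from mouse to mouse (below), so they are not 8 independent counts of a direction. Without transgenic mouse 165, 6 of the 8 had an unadjusted limma p under 0.05, beside 10.4% of all probes in that fit. Without transgenic mouse 152 there were 3, beside 16.0% of all probes, and without wild-type mouse 159 there were 2, beside 8.93%. Leaving out any other mouse gave 1 of the 8, beside 6.26% to 9.56% of all probes. Mouse 165 was the highest tg/tg mouse for every gene but the keratins, so leaving it out lowers their tg/tg means. In all of these fits 0 of the 8 passed after adjustment.

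**Figure D2:**
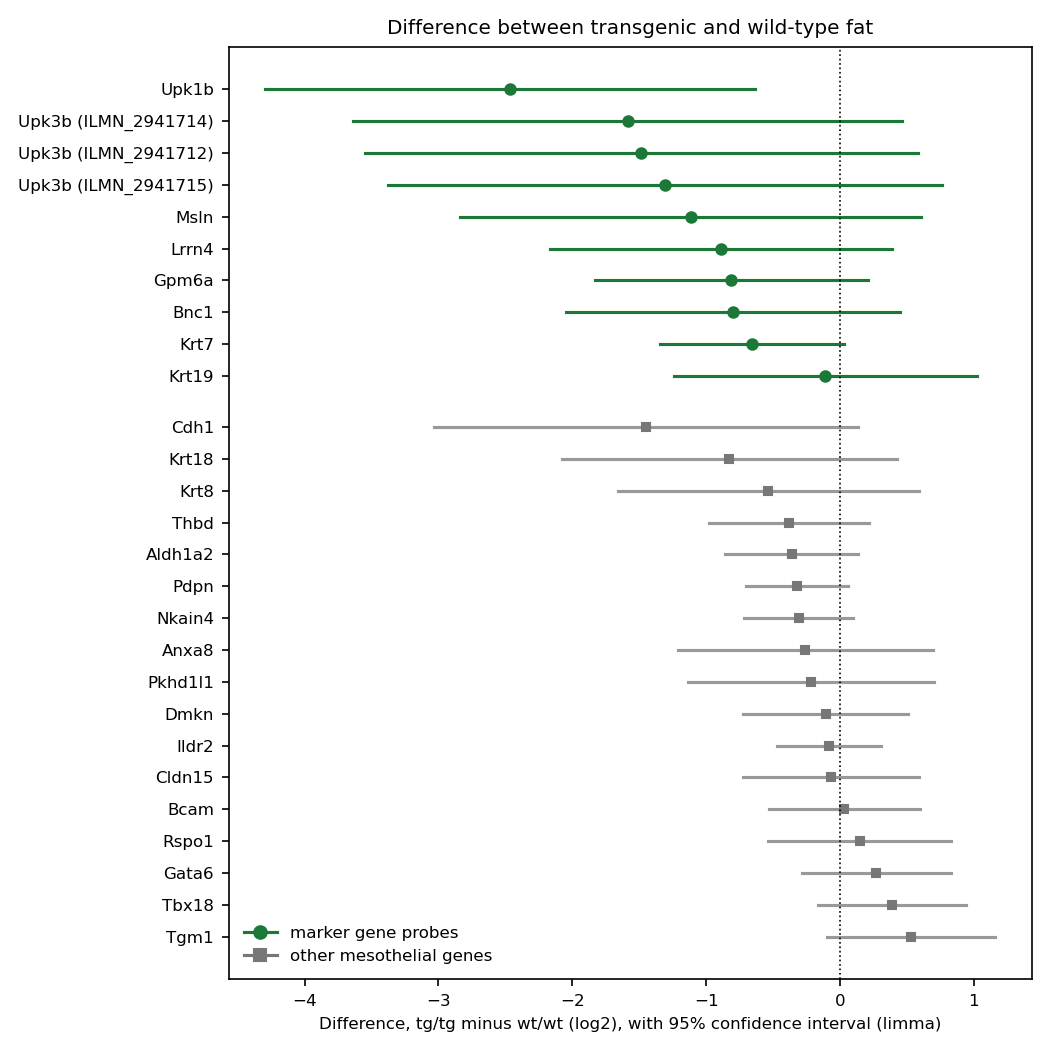
Log2 difference, tg/tg minus wt/wt, of the 10 tested probes of the mesothelial markers (green circles) and of the 17 tested genes of a second mesothelial list (grey squares), with 95% intervals from limma. All 10 green points lie below 0 and the grey ones on both sides of it, and among all shown only the interval of Upk1b, -4.29 to -0.63, does not reach 0.

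The spread between mice was wide for most of these genes. From the lowest to the highest mouse, the normalized intensity differed 49.2-fold for Upk1b, 35.8-fold for Upk3b and 14.5-fold for Msln. The range was 8.27-fold for Bnc1, 8.05-fold for Lrrn4, 6.50-fold for Gpm6a, 6.48-fold for Krt19 and 3.45-fold for Krt7. The SD of the log2 level over the 9 mice was 1.88 for Upk1b and 1.74 for Upk3b, against a median of 0.30 over the tested named genes. Only 1.03% and 1.17% of those genes had a larger SD. The share with a larger SD was 1.73% for Msln, 3.11% for Lrrn4, 3.40% for Bnc1, 5.14% for Gpm6a, 5.52% for Krt19 and 12.1% for Krt7. Within genotypes the pooled SD was still 1.64 for Upk3b, 1.46 for Upk1b and 1.37 for Msln, so that most of the spread lay between mice of 1 genotype. Dim probes such as that of Bnc1 have their spread compressed by the background, so these ranks describe probes as measured.

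**Figure D3:**
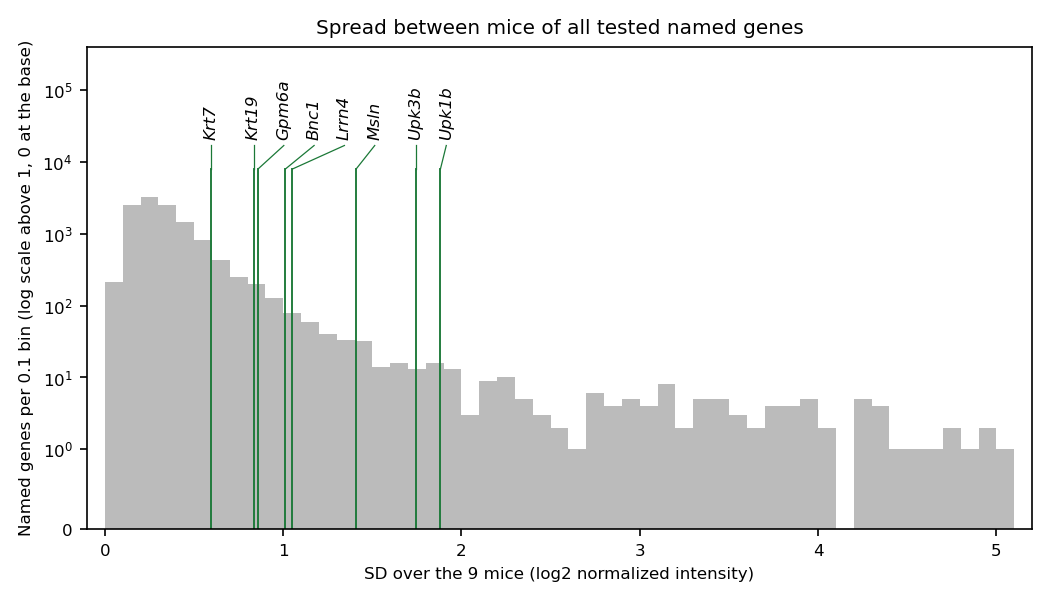
SD of the log2 level over the 9 mice for the 12171 tested named genes (grey bars, number of genes per 0.1 bin on a log scale), with the 8 mesothelial genes marked by green lines. Krt7 lies nearest the bulk of genes at 0.60, and Upk3b and Upk1b lie at 1.74 and 1.88.

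Across the 9 mice, Upk3b, Msln, Lrrn4, Gpm6a and Bnc1 rose and fell together. Of the 28 pairs among the 8 genes, 13 passed an exact permutation test of Pearson's r over all pairings of the mice, two-sided, after Benjamini-Hochberg adjustment over the pairs. All 10 pairs among these 5 genes passed, with r of 0.90 to 0.97, Spearman's rho of 0.92 to 1 and adjusted permutation p of 0.00147 to 0.00481. With deviations from the genotype means in place of the levels, r was 0.87 to 0.97. Leaving out the 2 mice farthest from the median of the first gene gave 0.90 to 0.97, and leaving out any 1 mouse gave r of at least 0.849, the lowest for Upk3b and Msln without mouse 164. The mesothelial genes were proposed for their co-variation across these same mice. The permutation p-values therefore describe its strength and are not an independent test of it. The 5 genes were grouped in this way after their correlations were seen.

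The pair with the highest r was Msln and Gpm6a, whose r of 0.968 (exact permutation p = 5.51e-05, adjusted p = 0.00147) went with a rho of 0.967 (exact permutation p = 0.000165, adjusted p = 0.000772). Without the 2 mice farthest from the median of Msln, 152 and 164, its r was 0.924. Among all tested named genes, each of these 2 genes was the nearest to the other. Lrrn4 and Bnc1 had an r of 0.968 (exact permutation p = 0.000105, adjusted p = 0.00147) and the same rho, and without mice 163 and 142 their r was 0.957. Upk3b and Bnc1 put the 9 mice in exactly the same order, from 142, 165, 141, 147, 143, 159 and 152 down to 163 and 164. Their r was 0.937 (exact permutation p = 0.000446, adjusted p = 0.00240), and their rho of 1 had an exact permutation p of 5.51e-06, adjusted to 0.000154. The first 6 places of that order held all 4 wild types and transgenic mice 165 and 147, and the last 3 were transgenic.

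Upk1b followed the same 5 genes less closely, with r of 0.71 to 0.85, and 3 of its 5 pairs passed, those with Upk3b, Msln and Gpm6a. Its r with Upk3b was 0.852 (exact permutation p = 0.00378, adjusted p = 0.00962) with a rho of 0.767 (exact permutation p = 0.0214, adjusted p = 0.0499). Without mice 163 and 164, the r of this pair was 0.638, so that it rests in part on those 2 mice. Its highest mice were wild types 143 and 141, whereas Upk3b was highest in mice 142 and 165. The difference between these correlations was not tested.

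Krt19 stood outside this pattern in its values, and Krt7 followed it only loosely. Krt7 had r of 0.36 to 0.70 with the 6 others and Krt19 -0.37 to 0.01, and 0 of these 12 pairs passed. Without mice 163 and 164, the r of Krt7 with Upk3b changed from 0.655 to -0.152. The 2 keratins had an r of 0.625 with each other (exact permutation p = 0.0680, adjusted p = 0.106) and a rho of 0.700 (exact permutation p = 0.0433, adjusted p = 0.0865). On deviations from genotype means their r was 0.719, and without mice 164 and 143 it was 0.688. Whether the keratins' correlations differ from those of the other genes was not tested.

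**Figure D4:**
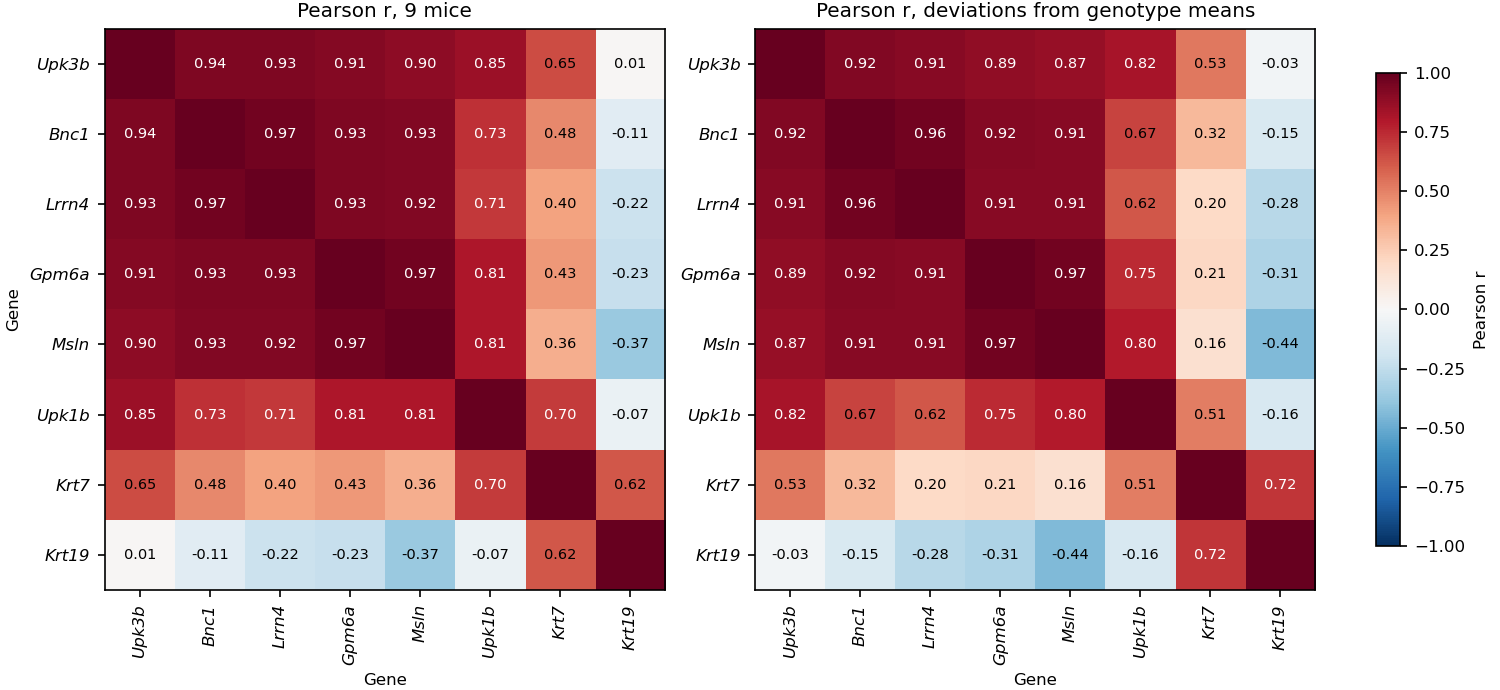
Pearson correlation over the 9 mice between the log2 levels of each pair of the 8 tested mesothelial genes (left) and between their deviations from the genotype means (right), on a colour scale from -1 to 1. Upk3b, Bnc1, Lrrn4, Gpm6a and Msln form a block at 0.90 to 0.97 on the left, and the Krt19 row lies at -0.37 to 0.01 apart from its value of 0.62 with Krt7.

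**Figure D5:**
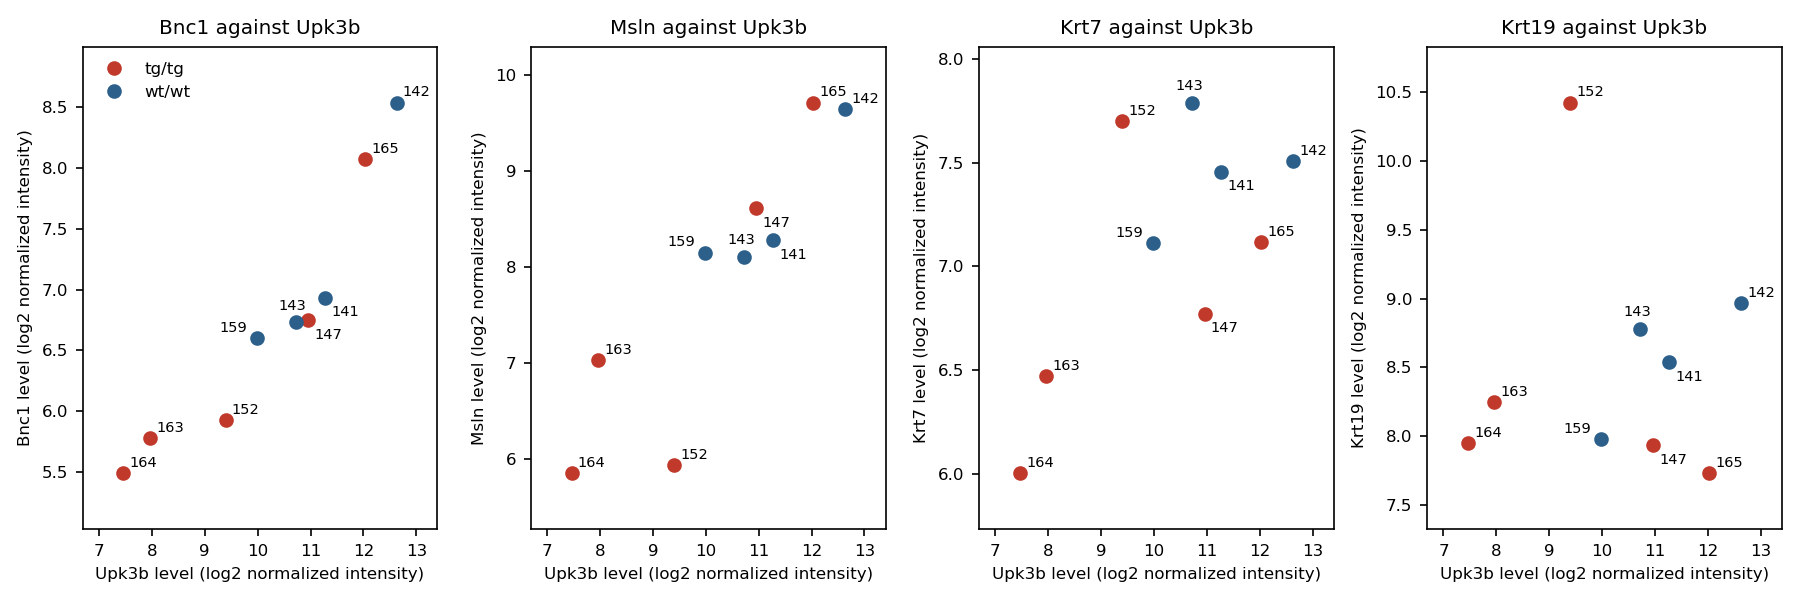
Log2 levels of Bnc1, Msln, Krt7 and Krt19 against that of Upk3b, 1 point per mouse with its number, tg/tg in red and wt/wt in blue. Bnc1 and Msln climb with Upk3b in mice of both genotypes (r of 0.94 and 0.90), whereas transgenic mouse 152 stands far above the other 8 for Krt19.

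The same measure over all 74060535 pairs of tested named genes had a median r of 0.0068, beside 0.72 for the 28 pairs of mesothelial genes. An r of at least 0.9 was found for 9 of the 28 pairs (32.1%) and for 0.338% of all pairs. All genes share the same 9 arrays, and genes are not independent replicates. Because the mesothelial genes were proposed for co-variation in these data, a median above that of all pairs is a description and not a test. The 23 pairs with r above 0 included all 15 among the 6 genes other than the keratins.

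Among the 5 genes that moved together, promoter sequences were at hand for Upk3b, Lrrn4, Gpm6a and Bnc1. They are printed below to show what these genes do and do not share at their starts. They come from RefSeq on build GRCm38.p6, run from 250 bases before to 50 bases after the annotated start and read 5′ to 3′ on the strand of the gene. Capitals mark each match, on either strand, to CATTCC, the core that TEAD factors bind, or to GCGNGGGNG, a core shared by WT1 and the EGR factors. Upk3b lies at chr5:136038246-136038545 (plus strand), Lrrn4 at chr2:132880813-132881112 (minus strand), the first of 2 starts of Gpm6a at chr8:54779184-54779483 (plus strand) and Bnc1 at chr7:81992250-81992549 (minus strand).
Upk3b: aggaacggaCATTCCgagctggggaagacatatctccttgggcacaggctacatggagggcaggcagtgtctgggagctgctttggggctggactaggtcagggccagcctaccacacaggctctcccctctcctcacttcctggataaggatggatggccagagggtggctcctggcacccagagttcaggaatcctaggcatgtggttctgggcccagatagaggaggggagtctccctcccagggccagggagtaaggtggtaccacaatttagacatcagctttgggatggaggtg
Lrrn4: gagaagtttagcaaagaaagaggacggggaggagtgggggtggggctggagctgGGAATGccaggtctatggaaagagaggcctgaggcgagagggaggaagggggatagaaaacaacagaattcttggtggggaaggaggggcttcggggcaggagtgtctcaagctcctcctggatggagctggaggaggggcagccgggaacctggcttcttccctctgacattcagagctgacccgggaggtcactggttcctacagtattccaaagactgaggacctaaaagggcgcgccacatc
Gpm6a: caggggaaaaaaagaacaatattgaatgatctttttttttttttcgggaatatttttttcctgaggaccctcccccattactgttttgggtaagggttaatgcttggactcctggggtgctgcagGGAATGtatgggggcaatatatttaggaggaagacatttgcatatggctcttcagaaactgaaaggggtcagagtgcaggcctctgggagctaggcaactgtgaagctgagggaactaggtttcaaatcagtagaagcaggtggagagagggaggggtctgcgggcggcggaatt
Bnc1: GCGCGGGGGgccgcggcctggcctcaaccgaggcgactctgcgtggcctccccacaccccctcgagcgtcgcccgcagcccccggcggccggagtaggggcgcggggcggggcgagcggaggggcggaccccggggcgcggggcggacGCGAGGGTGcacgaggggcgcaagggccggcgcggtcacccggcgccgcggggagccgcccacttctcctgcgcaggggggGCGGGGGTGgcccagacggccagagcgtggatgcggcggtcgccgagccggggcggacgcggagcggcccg

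CATTCC occurred once in Upk3b, 241 bases before the start. As GGAATG it occurred once in Lrrn4 (196 bases before the start) and once at the first start of Gpm6a (125 bases before it). It did not occur at the second start of Gpm6a, in Bnc1, or in the windows of Krt7 and Muc16. These were all 7 windows at hand for the mesothelial genes. It was found in 14.7% of the 32851 mouse promoters of the same length. GCGNGGGNG matched 3 times in Bnc1, beginning 250, 102 and 21 bases before the start, and in none of the other windows of these genes. Of all these promoters, 12.3% held it. The Bnc1 window is 83.3% G or C, against 58.7% for Upk3b and 58.0% for Lrrn4. For Gpm6a it is 47.0% at the first start and 36% at the second. GGGCGG, the core bound by SP and KLF factors, occurred 6 times in Bnc1, 4 times in Krt7 and 1 time in Gpm6a (38 bases after the start), beside 35.7% of all promoters with at least 1, and 1 of the Bnc1 matches overlaps the last GCGNGGGNG. A match of letters is a description and does not show binding.

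Outside the 10 genes, the named genes whose levels over the 9 mice were most like the mean of the 8 z-scored mesothelial genes were Slpi, a secreted inhibitor of leukocyte proteases, with an r of 0.969, and the homeodomain factor Isl1 with 0.952. The RNA helicase Ddx5 had 0.935, the tetraspanin Tspan8 0.935, Lsm2 0.905 and the Golgi GTPase Rab6a 0.902. Agbl3 (0.897), Dhrsx (0.895), the autophagy gene Becn1 (0.892) and Igfbp6 (0.889) completed the first 10. On deviations from the genotype means Slpi (0.966) and Isl1 (0.959) again came first. They were followed by Gpsm2 (0.954), Rpp25 (0.933), Flrt2 (0.924), Zfp414 (0.918), Magel2 (0.910), Tspan8 (0.905), Ddx5 (0.899) and Stoml1 (0.898). Slpi was detected on 6 of 9 arrays and Isl1 on 8, and they ranged from 4.90 to 7.76 and from 5.21 to 8.34 on the log2 scale. Gpsm2 and Magel2 were detected on only 4 arrays, Rpp25 on 6, Tspan8 on 7, and Agbl3 and Stoml1 on 8. On levels, all 10 had a higher r with this mean than Upk1b (0.879), Msln (0.874), Krt7 (0.738) and Krt19 (0.101), which are part of it. Being picked as the highest of all tested named genes over 9 mice favours a high r. Taken gene by gene, the nearest gene to Upk3b was Slpi, with an r of 0.980, and the nearest to Bnc1 was Isl1, with 0.979.

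A second list of 20 genes known from mesothelium, among them keratins, a claudin and Pdpn, had differences on both sides of 0. Of the 20, 19 had a probe and 17 were tested, with 12 lower and 5 higher in tg/tg mice, and 0 called. At an unadjusted p under 0.05 limma also gave 0. Their median log2 difference was -0.22. The mean log2 level of the 17 tested genes was 8.58 to 8.88 in tg/tg mice and 8.90 to 9.02 in wt/wt mice. By this mean every tg/tg mouse lay below every wild type, by a small margin that was not tested. The 4 with the lowest unadjusted p were the epithelial cadherin Cdh1 (-1.45, limma adjusted p = 0.559), the cross-linking enzyme Tgm1 (0.53, limma adjusted p = 0.588), podoplanin (Pdpn, -0.32, limma adjusted p = 0.592) and Nkain4 (-0.31, limma adjusted p = 0.630). The 2 probes of Cdh1 did not agree, with differences of -1.45 and 0.15. Their r with Upk3b over the 9 mice ran from -0.33 to 0.84 with a median of 0.15, and 5 of the 17 lay below 0. The mean level of the list had an r of 0.48 with Upk3b (exact permutation p = 0.185, adjusted p = 0.828) and a rho of 0.48 (exact permutation p = 0.194, adjusted p = 0.613). This r was 0.66 without mice 165 and 164, and 0.21 on deviations from the genotype means. Of the tested mesothelial genes, Krt7 had the highest r with this level, 0.70 (exact permutation p = 0.0344, adjusted p = 0.424). Its rho was 0.58 (exact permutation p = 0.108, adjusted p = 0.613). The r of Krt7 was 0.55 without mice 165 and 164, and 0.50 on deviations from the genotype means. The genes with the highest r with Msln, picked after their values were seen, were Pkhd1l1 and Anxa8. Over the 9 mice Pkhd1l1 had r of 0.84 with Upk3b and 0.95 with Msln, and Anxa8, detected on 7 arrays, had 0.81 and 0.85. For Pdpn the same correlations were 0.83 and 0.67. The simple-epithelium keratins Krt8 and Krt18, also picked after their values were seen, had r of -0.33 and -0.26 with Upk3b, and of 0.69 and 0.59 with Krt19.

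Markers of other cell types were set beside the mesothelial genes in the same mice. The general epithelium list, of which 9 of 12 genes were tested, had a mean log2 level of 7.06 to 10.82 in tg/tg mice and 8.84 to 10.43 in wt/wt mice, and Epcam was detected on 0 arrays. Mouse 152, the highest for Krt19, was also the highest of the 9 on that list, and mouse 165, the lowest for Krt19, was the lowest. Krt19 had an r of 0.660 with it (exact permutation p = 0.0353, adjusted p = 0.424) and a rho of 0.767 (exact permutation p = 0.0214, adjusted p = 0.498). Without mice 165 and 152 this r was 0.350, so the relation rests on those 2 mice. The r of Upk3b with the same list was 0.03 (exact permutation p = 0.946, adjusted p = 0.990), and its rho was -0.05 (exact permutation p = 0.912, adjusted p = 0.994). Without mice 165 and 152 the r of Upk3b was 0.47, no lower than that of Krt19, and on deviations from the genotype means it was -0.33. The contrast between these 2 genes therefore depends on those mice. Krt7 had an r of 0.78 with the epididymal list (exact permutation p = 0.0137, adjusted p = 0.329), with a rho of 0.65 (exact permutation p = 0.0666, adjusted p = 0.613). Without mice 165 and 164 its r was 0.83, and on deviations from the genotype means it was 0.70. Upk3b had an r of 0.42 with the epididymal list (exact permutation p = 0.259, adjusted p = 0.828) and a rho of 0.22 (exact permutation p = 0.581, adjusted p = 0.945). Its r was 0.56 without mice 165 and 164, and -0.008 on deviations from the genotype means. Upk1b had an r of 0.64 with the epididymal list (exact permutation p = 0.0660, adjusted p = 0.611) and a rho of 0.62 (exact permutation p = 0.0857, adjusted p = 0.613). The r of Upk1b was 0.76 without mice 165 and 164, and 0.10 on deviations from the genotype means. For Msln, Lrrn4, Gpm6a and Bnc1 the r with this list was 0.19 to 0.29. Of 96 such relations between a mesothelial gene and a list, 0 passed after adjustment. The lowest adjusted p, 0.277, was shared by 3 negative relations of the keratins. Krt19 had an r of -0.88 with the macrophage list (exact permutation p = 0.00756) and a rho of -0.63 (exact permutation p = 0.0760, adjusted p = 0.613), and without mice 152 and 164 its r was -0.55. Krt19 with the endothelium list had an r of -0.76 (exact permutation p = 0.00866) and a rho of -0.73 (exact permutation p = 0.0311, adjusted p = 0.498). For Krt7 with the endothelium list r was -0.81 (exact permutation p = 0.00796) and rho -0.85 (exact permutation p = 0.00607, adjusted p = 0.292). Without mice 152 and 143 these last 2 values of r were -0.62 and -0.69. The part of these cells in the differences of the mesothelial genes was not tested. Mice 165, 164 and 163 had the lowest epididymal levels of the 9 (5.13, 5.31 and 5.36), and their Upk3b levels were the second highest (12.02), the lowest (7.46) and the next lowest (7.96). Of the 6 bladder lining genes, 2 were tested, with a mean log2 level of 6.19 to 7.11 in tg/tg and 5.51 to 7.45 in wt/wt mice, and Upk2 was detected on 0 arrays and Upk3a on 1.

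The brightest tested genes of the epithelial lists were Gpx5 and Adam7 of the epididymis, with log2 differences of -6.16 and -5.86, and Esrp1 and Spint1 of epithelia in general, with -1.62 and -0.49. For the bladder list these were Upk1a (0.04) and Krt20 (0.24). Fat and its stroma gave Adipoq (0.06), Lep (0.52), Dcn (0.06) and Dpt (0.25). Nerve gave Stmn2 (-0.15) and Cdh19 (0.11), and smooth muscle Acta2 (0.11) and Myh11 (0.30). Endothelium gave Cldn5 (0.50) and Pecam1 (0.12), and macrophages Mrc1 (0.04) and Csf1r (0.19). The testis lists gave Sox9 (-0.36), Dhh (-0.45), Prm1 (-0.23) and Odf1 (-1.55). Of these 22 genes, 0 passed at an adjusted p under 0.05 in limma. Other genes of the epididymal list did pass: of its 14 tested genes, 14 were lower in tg/tg mice, 12 at an unadjusted p under 0.05, and 6 were called in limma, with the lowest adjusted p at 0.000218. Among all 12171 tested named genes 5299 were lower in tg/tg mice (43.5%) and 13 were called (0.107%). At an unadjusted limma p under 0.05 there were 1101, in either direction. The epididymal list was chosen with earlier results of these data known, so its counts are a description and not a test. Some of its genes were detected on no tg/tg array and passed the filter through the wild types alone.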

How the data were processed

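RNA of 9 mice was measured on Illumina bead arrays. The deposited tables hold probe intensities and detection p-values from the authors; the labels leave the scanner software and any earlier step unstated. The detection p-values fell in step with the intensities of the series table, and on 8 arrays not with those of the other table, so the series table was used. Probes were named from the platform annotation (34885 probes with 1 symbol, 18 with several).

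Intensities were background corrected and quantile normalized with neqc (limma 3.58.1, R 4.3.3, offset 16, negative controls inferred from the detection p-values) and put on a log2 scale. The filter kept probes whose detection p was below 0.05 on 4 or more arrays (23354 kept, 21927 left out). limma fitted genotype over all of them, with Benjamini-Hochberg adjustment and a threshold of 0.05. The fit was tested on simulated data. A gene is its brightest tested probe. Correlations used exact permutation of the 9 mice (scipy 1.17.1).

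The mesothelial genes and all other lists were chosen with earlier results of these data known. Genes named are all probes of the members, the 4 lowest p of the second mesothelial list, the 2 brightest tested genes of each other marker list and the 10 most alike on each scale. Pkhd1l1, Anxa8, Krt8 and Krt18 and the seldom detected Epcam, Upk2 and Upk3a are named outside this rule, after their values were seen. Alternatives covered the table, background, offset, normalization, filter, variance prior, array weights, probe choice and each mouse left out. The mice are separate animals, and p-values measure the spread between them.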

Additional observations from a re-analysis of the deposited data

Results flagged for a closer look

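Within each genotype, the highest and lowest mouse was compared with the rest by Dixon's ratio for 28 groups of samples, of which chance would flag about 1 in 20. Of the groups, 2 held a mouse that stood apart. Wild-type mouse 142 had a log2 Msln level of 9.65, and the next highest wild type was at 8.28. Transgenic mouse 152 had a log2 Krt19 level of 10.43, and the next highest transgenic mouse was at 8.25.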

How the results depend on the processing

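No paired analysis was possible because the mouse numbers are not shared between the genotypes. Over 18 alternatives, the log2 differences of the tested mesothelial probes kept their direction in 173 of 178 values, and 0 of the genes were called in any. The 5 others were Krt19, at 0.30 without normalization between arrays, 0.073 without tg/tg mouse 165, 0.023 without tg/tg 147, 0.019 without tg/tg 164 and 0.024 without wt/wt 142; leaving out 1 mouse gave -0.61 to 0.073. That normalization step moved the median of all probes to 0.43, and without it 1332 probes were called (1283 higher). The median log2 difference of the second mesothelial list was 0.18 without it, -0.087 without background correction and -0.30 to -0.029 when 1 mouse was left out. The number of probes called, 16 in the fit as reported, was 9 with no filter, 1 with detection on all 9 arrays, 353 with array weights (170 higher) and 9 to 50 when 1 mouse was left out. It was 50 without tg/tg 152 and 37 without wt/wt 142. With array weights, 6 of the 8 genes had an unadjusted p under 0.05, beside 20.6% of all probes. The median difference of the 8 genes was -1.26 to -0.59 when 1 mouse was left out, and the median correlation over their pairs was 0.65 to 0.84. The cause of these changes was not tested. Detection limits Bnc1 in mouse 164 and the third Upk3b probe in 2 mice, and only 9 mice bound the precision.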
